A study of Mus musculus with 3 samples.

Results

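Lymphocytes of the mouse skin wound were described here: T cells, natural killer (NK) cells and innate lymphoid cells, chosen from 3 single-cell libraries by a rule on UMIs, the counted molecules of a gene in a cell. A barcode was taken when it held at least 2 UMIs of *Cd3e*, *Cd3g*, *Cd3d*, *Il2rb*, *Il7r* and *Nkg7* together. It also had to hold at most 1 UMI of the myeloid genes *Csf1r*, *Mrc1*, *Mmp12* and *Flt3*, and at most 3 UMIs of the keratinocyte and fibroblast genes *Krt14*, *Krt5* and *Col1a1*. The rule selected 272 of the 26953 cells left after a filter (250 genes or more, mitochondrial UMIs no higher than 10%).

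Each library came from female C57BL/6J mice wounded on postnatal day 50 with a splinted full-thickness excision of 5 mm on the back. On day 5 the wound was excised together with 2 mm of its border, so wound bed and neighbouring healthy skin are mixed in it, and was fixed before it was dissociated. In the AN-GelMA group the wound received 20 µL of gelatin methacryloyl hydrogel loaded with AN, for which the series title gives apoptotic neutrophils, set with UV light for 1 min. In the GelMA group it received the same volume of gel without AN, set the same way. In the untreated group, titled Sham, no gel is named. The number of mice behind a library is not stated, and the files of the AN-GelMA library carry the word heat, which the labels do not explain. With 1 library per group no difference between groups can be tested, and every interval below covers counting error only, at 95%.

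The dorsal epidermis of mice holds a resident T cell found there in few other places, the dendritic epidermal T cell. It carries a gamma-delta receptor built from the V segment *Trgv5* (in the older nomenclature of the GENCODE table, *Tcrg-V5*), sits between keratinocytes by means of the integrin CD103 encoded by *Itgae*, and is known to respond to damaged keratinocytes. Regulatory T cells, which need the transcription factor *Foxp3*, are a large part of the CD4 T cells of resting mouse skin. Group 2 innate lymphoid cells and NK cells lack a rearranged receptor and the CD3 chains at their surface.

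The V segment of the dendritic epidermal T cell is shown because several results turn on its transcript. The last coding stretch of *Trgv5* lies on chromosome 13 of GRCm38, chr13:19192433-19192725 on the plus strand, in the GENCODE M21 transcripts. It is 293 bases long. The last 17 bases, in capitals, run from the cysteine codon at which the receptor's variable joining loop begins to the end of the segment.
Trgv5: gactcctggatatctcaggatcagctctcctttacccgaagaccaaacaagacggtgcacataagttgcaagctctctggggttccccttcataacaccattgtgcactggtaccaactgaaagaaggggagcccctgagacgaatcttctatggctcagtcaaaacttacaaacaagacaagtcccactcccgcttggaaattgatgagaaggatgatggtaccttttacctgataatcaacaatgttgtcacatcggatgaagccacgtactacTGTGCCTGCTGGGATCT
Aligned end to end, it shared 48.3% of 292 aligned bases with *Trgv6*, 48.6% of 292 with *Trgv7*, 46.8% of 293 with *Trgv1* and 44.7% of 293 with *Trgv4*.

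The AN-GelMA library gave 109 of the selected cells, the GelMA library 94 and the untreated library 69. Their median depth was 734 UMIs in AN-GelMA, 968 in GelMA and 848 in untreated, and their UMIs summed to 103198, 123006 and 104462 in the same order. A single UMI was therefore worth 9.69 CPM, UMIs scaled to a common library total, in AN-GelMA, 8.13 CPM in GelMA and 9.57 CPM in untreated. Between libraries 336 barcode sequences were shared, and 0 pairs of selected cells had the same sequence.

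The CD3 genes are part of the rule, so their presence in the selected cells describes the selection and is no check of the label. At least 1 CD3 UMI was present in 74 of 109 cells in AN-GelMA, 82 of 94 in GelMA and 50 of 69 in untreated. Among the 332 genes with at least 100 UMIs in the selected cells, those with the largest CPM ratio over all other cells included *Cd3g* (408), *Trgv5* (366), *Cd3e* (338), *Cd3d* (252), the receptor constant genes *Trdc* (229) and *Trgc4* (199), *Il2rb* (191), *Cd7* (167) and *Cd247* (146). Further down the list came *Ctsw*, *Arnt2*, *Skap1*, *Adgrg5*, *Grap2*, *Itgae*, *Klrd1*, *Zap70*, *Lck* and *Tbc1d10c*. *Cd3g*, *Cd3e*, *Cd3d* and *Il2rb* were part of the rule, so their place in this order is a description.

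Some of the selected cells went against the label. CD3 UMIs were absent from 35 cells in AN-GelMA, 12 in GelMA and 19 in untreated, and 24, 7 and 14 of these were admitted by *Il7r*, the interleukin 7 receptor, alone. The cells without CD3 that also lacked *Foxp3* and gamma-delta, CD8 and CD4 genes numbered 28 in AN-GelMA, 9 in GelMA and 16 in untreated. They held 34, 9 and 10 UMIs of the class II gene *H2-Aa*, while all cells with CD3 held 3, 1 and 4. They held 43, 9 and 16 UMIs of *Csf2rb*, a shared receptor chain for myeloid cytokines, against 6, 0 and 4 in the cells with CD3, and *Trgv5* was at 0 UMIs in them. Class II genes and *Csf2rb* are typical of antigen-presenting cells rather than T cells.

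The threshold passed through a crowded range. Exactly 2 marker UMIs were held by 49 cells in AN-GelMA, 29 in GelMA and 40 in untreated. Just outside it, 144, 74 and 82 cells had 1 marker UMI; 51, 22 and 36 of them had it from a CD3 gene and 66, 34 and 32 from *Il7r*. The limits on other cell types removed a further 69, 19 and 50 cells that had enough marker UMIs.

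A few barcodes were far deeper than the rest. Counting cells above 5 times the median of their own library as deep, there were 2 in AN-GelMA, 3 in GelMA and 5 in untreated. They held 11.9% of the selected UMIs in AN-GelMA, 14.4% in GelMA and 42.7% in untreated. The 5 untreated ones held between 6169 and 11417 UMIs but at most 2 CD3 UMIs each; 4 of them fell in the gamma-delta gate and 1 in the regulatory gate described below. The share of all cells, the gamma-delta and regulatory shares, and several list medians and gene ratios are given with and without them.

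**Figure D1:**
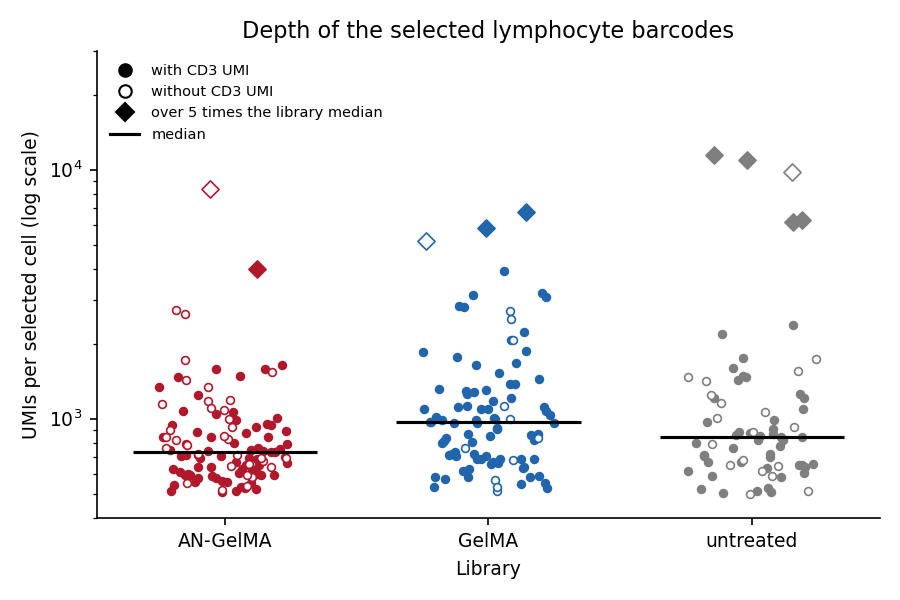
UMIs per selected cell (log axis) in the AN-GelMA, GelMA and untreated libraries; each point is a cell, filled where it held a CD3 UMI, with the median as a line. Diamonds mark the 2, 3 and 5 barcodes above 5 times their library's median; those of the untreated library lie between 6169 and 11417 UMIs.

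Traces of other cells were present and uneven. The 5 Langerhans cell markers summed to 60 UMIs in 11 cells in AN-GelMA, 114 UMIs in 8 cells in GelMA, 74 of them in 1 cell, and 42 UMIs in 11 cells in untreated; *Cd207*, which defines that cell, was at 0 in AN-GelMA, 1 in GelMA and 6 in untreated. The 12 macrophage markers summed to 49, 33 and 62 UMIs, and the 10 dendritic cell markers to 87, 51 and 65. The 9 keratinocyte markers reached 542 UMIs in AN-GelMA, 304 of them in 1 cell, 284 in GelMA and 87 in untreated. The 6 skeletal muscle markers summed to 5 UMIs in AN-GelMA, 323 in GelMA, 132 of them in 1 cell, and 31 in untreated. Their part in the results below was not tested.

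As a share of all cells, the selected cells made up 1.13% in AN-GelMA (0.932 to 1.37%), 0.832% in GelMA (0.673 to 1.02%) and 1.14% in untreated (0.890 to 1.44%). The intervals of all 3 libraries overlapped. Without the deep barcodes the shares were 1.11%, 0.805% and 1.06%. Restricted to cells with a CD3 UMI the shares were 0.770%, 0.726% and 0.828%, closer together still. Macrophage-gated cells were 8.49% of cells in AN-GelMA, 2.18% in GelMA and 6.66% in untreated, and fibroblast-gated cells 16.6%, 4.32% and 15.6%, so the mixture in which the lymphocytes were counted differed much more between libraries than their own share did. There were 13.4 selected cells per 100 macrophage-gated cells in AN-GelMA, 38.2 in GelMA and 17.2 in untreated. Among cells with a UMI of *Ptprc*, the pan-leukocyte gene, selected cells were 5.80% in AN-GelMA, 11.2% in GelMA and 6.73% in untreated.

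With subset gates set at 1 UMI, the gamma-delta gate held the most cells in each library. A cell was gated as gamma-delta when it held at least 1 UMI of *Trdc*, *Trgc1*, *Trgc2*, *Trgc4*, *Scart1* or *Sox13* and none of *Foxp3*. This took 38 of 109 cells in AN-GelMA (34.9%, 26.0 to 44.6%), 53 of 94 in GelMA (56.4%, 45.8 to 66.6%) and 28 of 69 in untreated (40.6%, 28.9 to 53.1%). The AN-GelMA and GelMA intervals did not overlap, and that of untreated overlapped both. Without the deep barcodes the shares were 33.6% in AN-GelMA, 58.2% in GelMA and 37.5% in untreated. The cells without CD3 enter these shares. Among cells with at least 2 CD3 UMIs the gamma-delta share was 59.2% in AN-GelMA, 70.8% in GelMA and 61.1% in untreated. The order of the gates depended on the setting. With gates at 2 UMIs, cells with CD3 and no other gate gene outnumbered the gamma-delta gate in each library. Their shares were 44.0% against 19.3% in AN-GelMA, 47.9% against 40.4% in GelMA and 36.2% against 29.0% in untreated. Thinned to 500 UMIs per cell, this held in AN-GelMA only, at 43.8% against 26.0%.

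*Trgv5* itself was detected in 24 cells in AN-GelMA (22.02%, 14.6 to 31.0%), 34 in GelMA (36.2%, 26.5 to 46.7%) and 16 in untreated (23.2%, 13.9 to 34.9%). Thinned to 500 UMIs per cell, the shares were 27.4%, 30.3% and 28.9%, closer together than without thinning. The rule was applied again after thinning and left 73, 66 and 38 cells, so both the depth and the cells counted had changed. In keratinocyte-gated cells, which should lack the gene, it was seen in 2 of 753 cells in AN-GelMA (0.266%), 0 of 1277 in GelMA and 3 of 453 in untreated (0.662%), at median depths of 1964, 2071 and 1977 UMIs. The detections in the selected cells therefore lie far above that level. *Trgv5* went with the gamma-delta constant genes: of the 113 cells with *Trdc* or a *Trgc* gene 66 also had *Trgv5*, and of the 159 cells without one 8 did. *Itgae* was found in 61 of the 74 cells with *Trgv5* and in 98 of the 198 cells without it. *Trgv6*, the segment of dermal gamma-delta cells that make interleukin 17, was found in 7 cells and *Trgv4* in 12, while *Il17a* had 8 UMIs and *Il22* 0 in all 272 cells. Of the 7 cells with *Trgv6*, 4 also held *Trgv5*. Probes to the near-identical constant genes may share targets, so single *Trgc* genes are uncertain. A UMI of *Trac* or a *Trbc* gene was also present in 6, 22 and 8 cells with a gamma-delta gene, so these genes did not separate the lineages cell by cell.

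**Figure D2:**
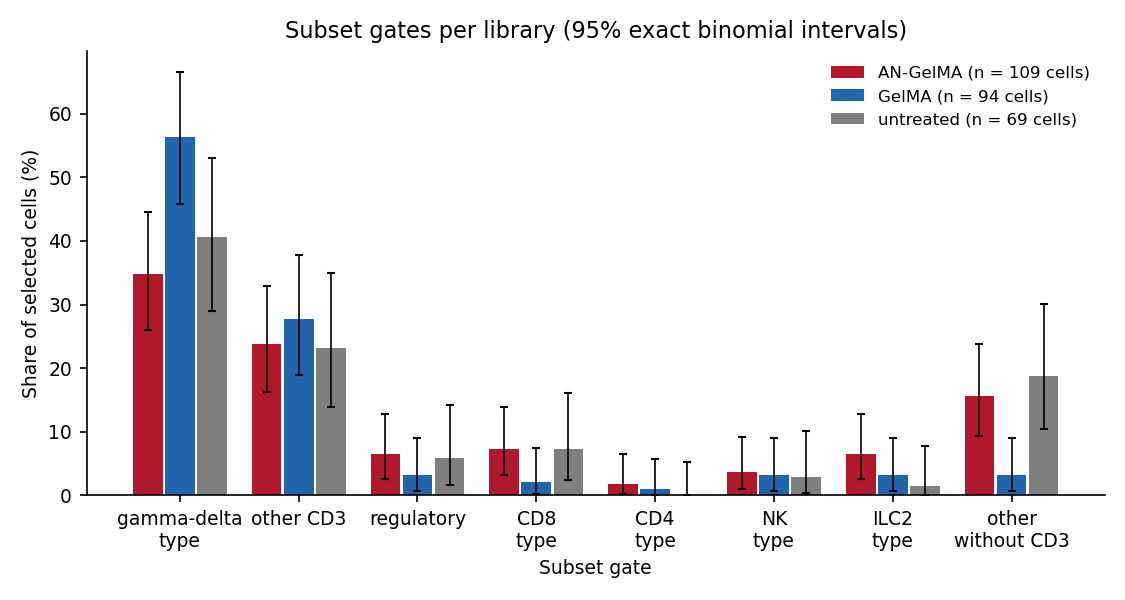
Share of the selected cells (%) in each subset gate for AN-GelMA (109 cells), GelMA (94) and untreated (69), with 95% exact binomial intervals. The gamma-delta gate holds 34.9%, 56.4% and 40.6%; the cells without CD3 and without a gate gene hold 15.6%, 3.19% and 18.8%, where the GelMA interval lies below the other two.

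Inside the gamma-delta gate, *Rgs1*, a brake on chemokine receptor signalling that is high in tissue-resident T cells, differed between libraries. The genes of this paragraph were chosen from this gate after their values had been seen, and deep barcodes are left out, which leaves 36 cells and 28828 UMIs in AN-GelMA, 53 cells and 67708 UMIs in GelMA, and 24 cells and 21398 UMIs in untreated. *Rgs1* was found in 18 of 36 cells in AN-GelMA with 47 UMIs, in 14 of 53 in GelMA with 29 UMIs, and in 10 of 24 in untreated with 59 UMIs. Its level was 1630 CPM (1198 to 2168) in AN-GelMA, 428 CPM (287 to 615) in GelMA and 2757 CPM (2099 to 3557) in untreated. The log2 ratio of AN-GelMA over GelMA was 1.93 (1.23 to 2.65), and that of GelMA over untreated was -2.69 (-3.38 to -2.02). In untreated, 17 of the 59 UMIs came from 1 cell, and in AN-GelMA 12 of the 47 did. GelMA was the library with the low level. *Il18r1* had log2 ratios of larger size, 2.86 (0.24 to 8.23) for GelMA over untreated and 3.27 (0.54 to 8.68) for AN-GelMA over untreated. It had 13 UMIs in AN-GelMA, 23 in GelMA and 1 in untreated.

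*Ctsw* and *Itgae* were also lowest in GelMA, with smaller ratios, while *Trgv5* and *Arnt2* were highest in AN-GelMA and close together in GelMA and untreated. *Ctsw*, which encodes the cathepsin of cytotoxic lymphocytes, stood at 3226 CPM in AN-GelMA, 1846 CPM in GelMA and 3225 CPM in untreated, a log2 ratio of 0.81 (0.40 to 1.2) for AN-GelMA over GelMA and -0.80 (-1.24 to -0.36) for GelMA over untreated. *Itgae* stood at 2602, 1625 and 3131 CPM, with log2 ratios of 0.68 (0.24 to 1.12) and -0.95 (-1.40 to -0.49) for the same pairs. *Trgv5* was at 1769 CPM in AN-GelMA, 1004 CPM in GelMA and 1028 CPM in untreated, and its log2 ratio of AN-GelMA over GelMA was 0.82 (0.26 to 1.36). *Arnt2*, a bHLH-PAS transcription factor, was at 2394, 1241 and 1309 CPM. Among the receptor genes, *Trdc* and *Cd3e* had intervals that included a ratio of 1 in all 3 pairs, while *Cd3g* and *Trgc4* did not. *Cd3e* and *Cd3g* belong to the rule, and *Trdc* and *Trgc4* to the gate. Cells were admitted through these 4 genes, so their levels describe the selection and are no result between libraries. *Cd3g* had a log2 ratio of 0.47 (0.03 to 0.91) for AN-GelMA over GelMA and -0.51 (-0.98 to -0.02) for GelMA over untreated. *Trgc4* had -0.98 (-1.67 to -0.27) for GelMA over untreated and -0.88 (-1.74 to -0.04) for AN-GelMA over untreated. The gamma-delta cells of GelMA were also deeper, with a median of 1006 UMIs against 710.5 in AN-GelMA and 832 in untreated, and the gate, deep barcodes included, carried 167 UMIs of the muscle gene *Tnnt3* in GelMA, against 3 in AN-GelMA and 11 in untreated. Their part in these ratios was not tested. Over all genes with at least 20 UMIs in this gate, 21.7% differed by a ratio of 2 or more either way between AN-GelMA and GelMA (11% higher, 10.7% lower) and the median log2 ratio was 0.23. For GelMA over untreated the share was 22.1% (14.1% higher, 8.03% lower) with a median of -0.08, and for AN-GelMA over untreated 11.8% (7.49% higher, 4.28% lower) with a median of 0.15. A ratio of 2 for a single gene is therefore common here.

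**Figure D3:**
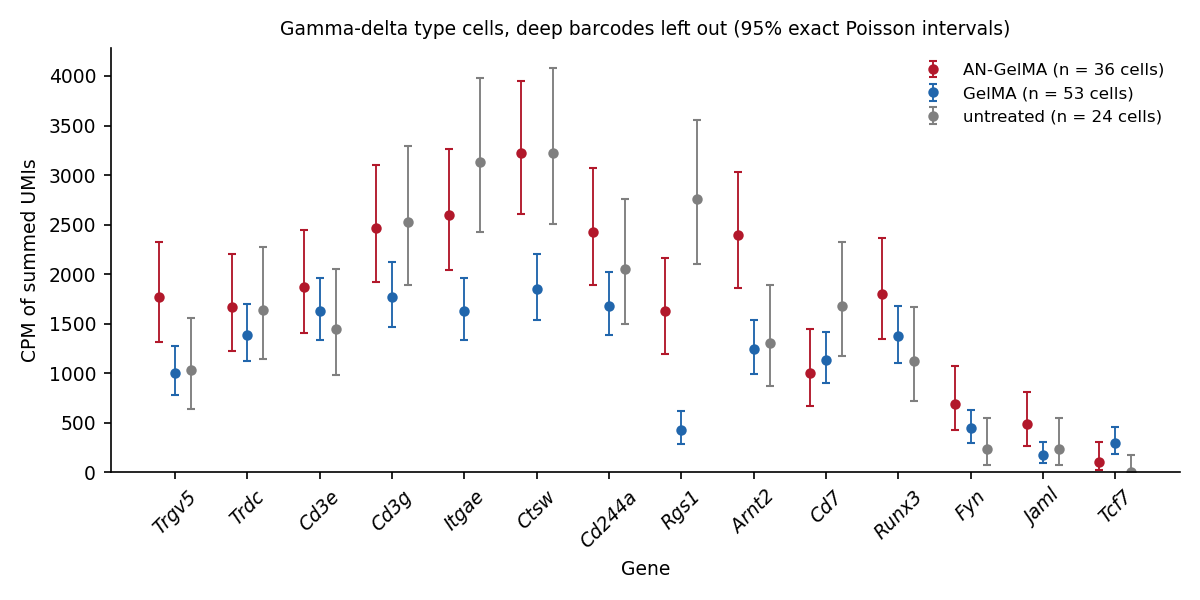
CPM of 14 genes summed over the gamma-delta gated cells of AN-GelMA (36 cells), GelMA (53) and untreated (24), deep barcodes left out, with 95% exact Poisson intervals for counting error. *Rgs1* is at 1630, 428 and 2757 CPM, and *Tcf7* has 3, 20 and 0 UMIs.

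*Tcf7*, a transcription factor of naive and stem-like T cells, and *Socs1*, a brake on cytokine signalling, were highest in GelMA over all selected cells. In the gamma-delta gate without deep barcodes *Tcf7* had 3 UMIs in AN-GelMA, 20 in GelMA and 0 in untreated, and *Socs1* had 3, 16 and 0, out of 28828, 67708 and 21398 UMIs in the gate. The log2 ratio of AN-GelMA over GelMA in the gate was -1.51 (-3.90 to 0.25) for *Tcf7* and -1.18 (-3.60 to 0.62) for *Socs1*, and both intervals included a ratio of 1. With the deep barcodes *Tcf7* had 4, 20 and 2 UMIs and *Socs1* 3, 16 and 2. Over all selected cells *Tcf7* had 8 UMIs in AN-GelMA, 25 in GelMA and 6 in untreated, spread over 7, 19 and 5 cells. Its log2 ratio was -1.39 (-2.75 to -0.20) for AN-GelMA over GelMA and 1.82 (0.50 to 3.40) for GelMA over untreated. *Socs1* had 7, 26 and 5 UMIs, with log2 ratios of -1.64 (-3.09 to -0.40) and 2.14 (0.74 to 3.88). *Bcl2*, which blocks cell death, had 13, 31 and 7 UMIs. For these 3 genes the GelMA library was the highest. The log2 ratios of GelMA over untreated without the deep barcodes were 2.18 for *Tcf7*, 2.24 for *Socs1* and 1.41 for *Bcl2*. In cells with CD3, deep barcodes included, those ratios were 1.62, 3.15 and 1.78. There the log2 ratio of AN-GelMA over GelMA was -0.87 for *Tcf7* and -1.23 for *Socs1*, smaller in size than over all selected cells.

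Regulatory T cells were few. *Foxp3*, which defines the gate, was present in 7 cells in AN-GelMA (6.42%, 2.62 to 12.8%), 3 in GelMA (3.19%, 0.663 to 9.04%) and 4 in untreated (5.80%, 1.60 to 14.2%), with intervals that overlapped. Without the deep barcodes the shares were 6.54%, 3.30% and 4.69%. In keratinocyte-gated cells *Foxp3* was present in 1 cell of each library. In macrophage-gated cells it was present in 3 of 816 in AN-GelMA, 1 of 246 in GelMA and 5 of 402 in untreated (1.24%). In fibroblast-gated cells it was present in 4 of 1592, 0 of 488 and 0 of 944. Cells of 714 UMIs in AN-GelMA, 997 in GelMA and 684 in untreated held no CD3 UMI. The deep untreated cell of 10961 UMIs held 1. *Ctla4*, the inhibitory receptor, was not used by the gate and was present in 11 of the 14 cells with *Foxp3*. These were 7 of 7 in AN-GelMA, 2 of 3 in GelMA and 2 of 4 in untreated. All 14 cells had *Ikzf2*, which encodes Helios, and 0 had *Trgv5*. In these cells *Ctla4* summed to 32 UMIs in AN-GelMA, 7 in GelMA and 11 in untreated. Over all selected cells *Ctla4* had 37, 12 and 14 UMIs in 9, 4 and 4 cells, a log2 ratio of AN-GelMA over GelMA of 1.88 (0.91 to 2.95). With so few cells, more regulatory cells and more *Ctla4* per cell cannot be told apart. Among cells with at least 3 marker UMIs that ratio was -0.90, the opposite direction.

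CD8 T cells, gated by *Cd8a* or *Cd8b1*, numbered 8 in AN-GelMA, 2 in GelMA and 5 in untreated, and cells with *Cd4* alone numbered 2, 1 and 0. *Cd8a* had 11, 2 and 13 UMIs. Keratinocyte-gated cells held *Cd8a* in 6 of 753 cells in AN-GelMA and 0 of 1277 in GelMA. A further 26, 26 and 16 cells had CD3 and no other gate gene; at this depth their lineage could not be read. Cells with neither CD3 nor a gate gene numbered 17 in AN-GelMA (15.6%, 9.36 to 23.8%), 3 in GelMA (3.19%, 0.663 to 9.04%) and 13 in untreated (18.8%, 10.4 to 30.1%). The GelMA interval lay below those of AN-GelMA and untreated.

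NK and innate lymphoid cells were rarer than T cells in each library. The NK gate, which asks for *Ncr1*, *Klrb1c*, *Eomes* or *Prf1* without CD3, took 4 cells in AN-GelMA, 3 in GelMA and 2 in untreated. *Ncr1*, the NK receptor NKp46, had 11 UMIs in AN-GelMA, 7 of them in 1 cell, 3 in GelMA, and 12 in untreated, 8 of them in 1 cell. *Klra8* was at 11, 0 and 8 UMIs, 9 of the 11 in 1 cell. *Gzma* had 1 UMI in all and *Gzmb* 4, while *Gzmc* had 13, 14 and 14. The group 2 gate, by *Gata3*, *Il1rl1*, *Il17rb*, *Il13* or *Il5* without CD3, took 7, 3 and 1 cells, and *Il1rl1*, the receptor for interleukin 33, had 9, 2 and 0 UMIs. In the same order *Il13* had 2, 2 and 7 UMIs and *Il5* 1, 1 and 3. *Gata3* also had a lower level in the selected cells than in all other cells, at 0.457 of their CPM, so it is a weak gate gene in skin.

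Clustered by expression alone, the 272 cells fell into 6 clusters. Cluster 0, with 103 cells, had *Trgv5* in 59 of them and CD3 in 97. It was led by *Krt75*, *Dsc2*, *Tgm6*, *Trgv5*, *Stac2*, *Adgrg3* and *Il12rb2*. *Krt75* and *Dsc2* came from 2 cells each and *Tgm6* from 1. Cluster 1, with 85 cells, was led by *Foxp3*, *Ctla4*, *Gimap4*, *Cd8a*, *Il2ra* and *Samd3* and had *Trgv5* in 0 cells. Cluster 2, with 33 cells, had CD3 in 4 and was led by *H2-M2*, *H2-M5*, *Mfge8*, *F10*, *Il4i1*, *Atf3* and *Csf2rb*. These include 3 of the 5 Langerhans cell markers, so its leading genes go against the lymphocyte label. The 3 markers *H2-M2*, *H2-M5* and *Mfge8* came from 6, 5 and 5 of the 33 cells, and *Csf2rb* from 22. Cluster 3, with 31 cells and 5 of the deep barcodes, was led by *Krt1* and *Tmprss4* and held muscle genes as well. Cluster 4, with 13 cells and the other 5 deep barcodes, was led by *Duxf3*, *Vmn2r31* and *Spin2g*, and 9 of its cells were from untreated. Cluster 5, with 7 cells, was led by *Rgs1* and *Prkacb*. No cluster was given a cell type name.

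**Figure D4:**
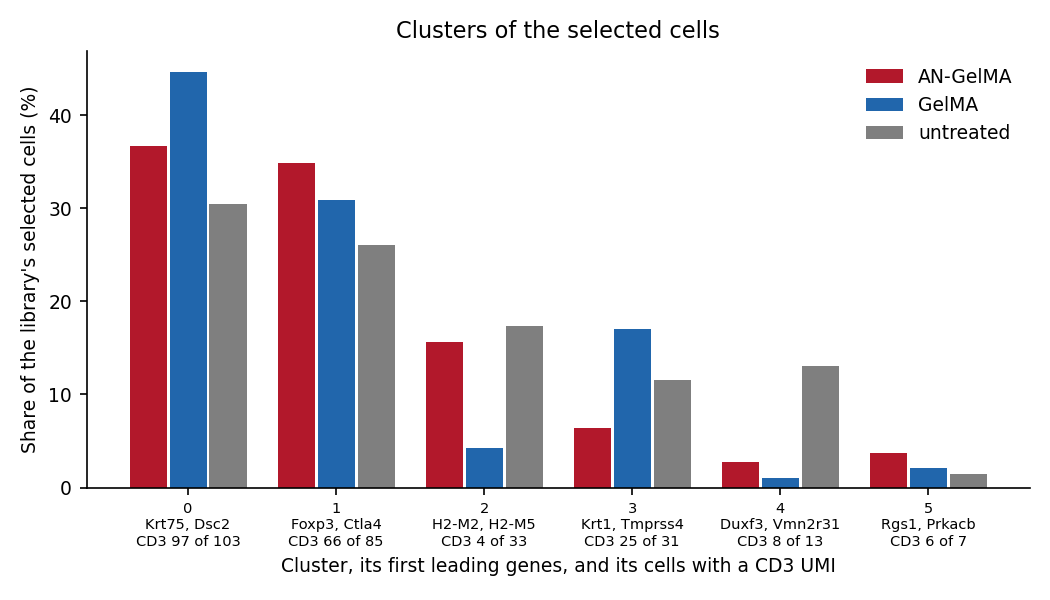
Share of each library's selected cells (%) in the 6 clusters for AN-GelMA, GelMA and untreated, with the first leading genes and the cells that held a CD3 UMI. Cluster 2, where 4 of 33 cells held CD3, has 17 cells from AN-GelMA, 4 from GelMA and 12 from untreated.

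Across all selected cells, 3667 genes had at least 20 UMIs in AN-GelMA and GelMA together. A ratio of 2 or more was reached by 289 of them (7.88%) in the higher direction for AN-GelMA over GelMA and by 323 (8.81%) in the lower one, 16.7% in all. The median log2 ratio was 0.01. The highest genes by the fixed ranking were *Csf2rb*, with 52 UMIs in AN-GelMA and 10 in GelMA, *H2-Ab1* with 46 and 11, *Plek* with 27 and 7, *H2-Aa* with 38 and 10, *Ncf4* with 44 and 13, *H2-Q4* with 36 and 11, *H2-Eb1* with 29 and 9, *Ctla4* with 37 and 12, *Plcb2* with 31 and 12, and *Lat2* with 44 and 18. For *Csf2rb* the log2 ratio was 2.63 (1.64 to 3.77). Cells with CD3 held 6 of the 52 AN-GelMA UMIs of *Csf2rb*, 5 of the 46 of *H2-Ab1*, 3 of the 38 of *H2-Aa* and 3 of the 27 of *Plek*, but 28 of the 37 of *Ctla4* and 23 of the 44 of *Ncf4*. The class II genes, *Csf2rb* and *Plek* thus lay mostly outside the T cells. Among cells with CD3, 7.91% of genes were higher and 8.89% lower by a ratio of 2 or more, 16.8% in all, and without the deep barcodes 8.11% and 8.27%, 16.4% in all. At the other end stood *H2-M2*, with 7 UMIs in AN-GelMA and 52 in GelMA, which came from 2 GelMA cells, followed by genes that included *Socs1*, *H2-M5*, *Pced1b*, *Tcf7*, *Usp24*, *Eif4e3*, *Rasgrp4* and *Dgkd*.

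In comparisons with untreated the deep barcodes shifted the ratios as a whole. The median log2 ratio over all tested genes was 0.50 for GelMA over untreated and 0.54 for AN-GelMA over untreated, and without the deep barcodes it was 0.05 and 0.10. A ratio of 2 or more in the higher direction was reached by 22.3% of genes for GelMA over untreated and by 23.6% for AN-GelMA over untreated, and without the deep barcodes by 10.5% and 7.54%. In the lower direction it was reached by 3.84% and 3.03%, and without them by 6.06% and 4.16%. Either way it was 26.1% and 26.6%, and 16.5% and 11.7% without them. In cells with CD3 the share was 29.8% higher and 2.23% lower, 32% in all, for GelMA over untreated and 36.4% higher and 2.63% lower, 39.1% in all, for AN-GelMA over untreated. Deep barcodes that held a CD3 UMI were still among these cells. The lowest genes in both comparisons included *Duxf3*, *Vmn2r31*, *Vmn1r91*, *Mup17*, *Spin2g*, *Ndufa1*, *Zfp992* and *Hmgb3*; *Duxf3* had 2 UMIs in AN-GelMA, 3 in GelMA and 47 in untreated, of which 5 remained without the deep barcodes.

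**Figure D5:**
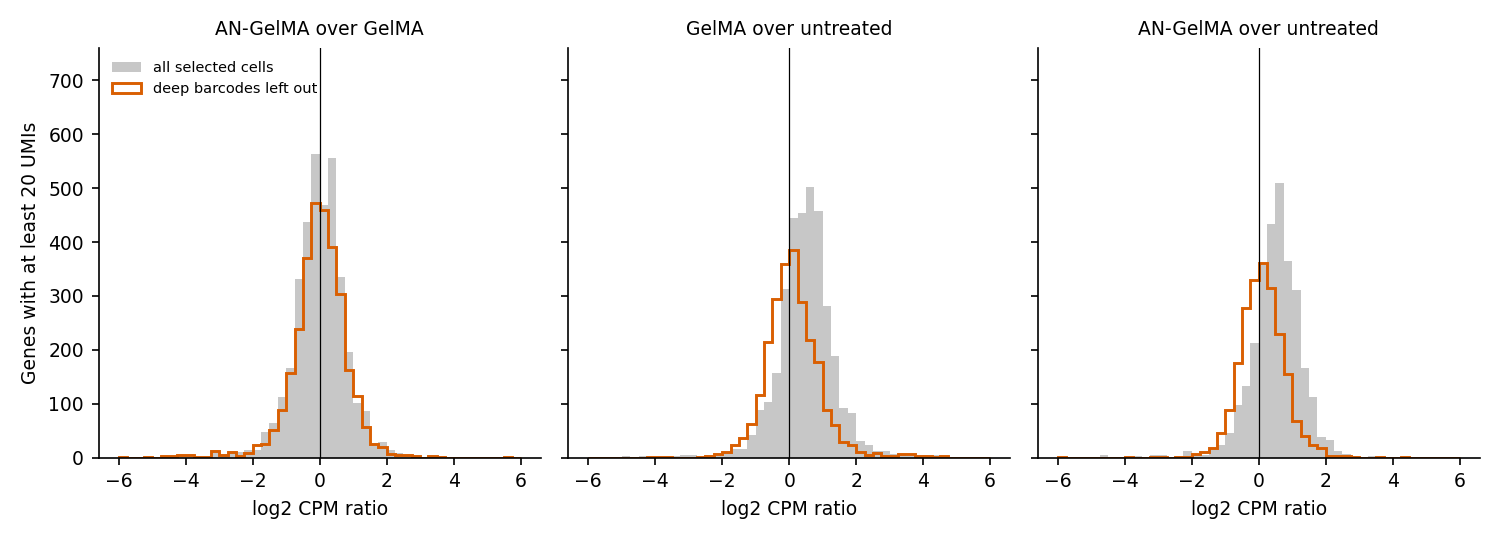
Distribution of log2 CPM ratios over genes with at least 20 UMIs for the 3 library pairs, with all selected cells (grey) and with deep barcodes left out (orange line). In both pairs with untreated the grey distribution is shifted to medians of 0.50 and 0.54, and the orange one to 0.05 and 0.10.

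Several of the named genes kept ratios over 2 against untreated without the deep barcodes. *Fyn*, a Src-family kinase at the T cell receptor, had 68 UMIs in 39 cells in AN-GelMA, 52 in 38 cells in GelMA and 14 in 12 cells in untreated. The log2 ratio of AN-GelMA over untreated was 2.30 (1.45 to 3.24), or 1.74 without the deep barcodes, and that of GelMA over untreated was 1.66 (0.78 to 2.62), or 1.18 without them. *Shisa5* had 40, 51 and 9 UMIs, with log2 ratios over untreated of 2.17 in AN-GelMA and 2.27 in GelMA, 1.87 and 1.99 without the deep barcodes. *Jaml*, a receptor through which epidermal gamma-delta T cells are costimulated, had 41 UMIs in AN-GelMA, 18 in GelMA and 12 in untreated. Its log2 ratio was 1.44 (0.61 to 2.33) for AN-GelMA over GelMA and 1.79 (0.83 to 2.85) for AN-GelMA over untreated, 1.17 without the deep barcodes. In the gamma-delta gate without deep barcodes, *Jaml* had only 14, 12 and 5 UMIs. There its log2 ratio was 1.45 (0.23 to 2.70) for AN-GelMA over GelMA. For AN-GelMA over untreated it was 1.06 (-0.50 to 2.88), an interval that included a ratio of 1. *Klrb1f*, *Coro2a*, *Gramd1a*, *Tespa1* and *Runx2* were also among the 10 highest in AN-GelMA over untreated, and *Smpd5*, *Slc1a5*, *Coro2a* and *Smad3* in GelMA over untreated.

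For the T cell receptor signalling list, counts past a ratio of 2 are set beside the share of all genes, which also differed between comparisons. Of 21 genes, 17 had enough UMIs in AN-GelMA and GelMA, 1 reached a ratio of 2 in the higher direction and 0 in the lower, and the median log2 ratio was 0.25, where all genes had 0.01 and 16.7% past a ratio of 2 either way. Its median was 0.61 for GelMA over untreated and 0.65 for AN-GelMA over untreated, and 0.14 and 0.25 without the deep barcodes. For GelMA over untreated 4 of 17 genes were higher and 0 lower, where all genes had 22.3% higher, and for AN-GelMA over untreated 3 of 18 were higher and 0 lower, where all genes had 23.6% higher. Without the deep barcodes 1 of 15 and 1 of 17 were higher, where all genes had 10.5% and 7.54%. In cells with CD3, 9 of 16 were higher for AN-GelMA over untreated, where all genes had 36.4%. These cells still included deep barcodes, among them untreated ones of 11417 and 10961 UMIs that held 2 and 1 CD3 UMIs. Early activation genes had the highest median of the lists with at least 5 tested genes in AN-GelMA over GelMA, 0.84 over 9 of 20 genes, with 4 higher and 1 lower, where all genes had 7.88% higher and 8.81% lower. Without the deep barcodes it was 0.33 over 7 genes, with 2 higher and 1 lower, where all genes had 8.11% and 8.27%. Its immediate early genes were at low counts: *Fos* had 17 UMIs in AN-GelMA, 5 in GelMA and 11 in untreated, *Jun* had 19, 5 and 11, and *Dusp1* 16, 7 and 7. *Rel*, an NF-kappaB subunit, had 32, 18 and 21. In cells with CD3, *Jun* had 1, 5 and 7 UMIs, *Fos* 3, 1 and 1, *Dusp1* 4, 7 and 4, and *Rel* 9, 13 and 7. Most AN-GelMA UMIs of these 4 genes were therefore in cells without CD3. Over untreated the early activation median for AN-GelMA was 0.65, and -0.047 without the deep barcodes.

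Lineage transcription factors were counted in the same way. Of 28 factors, 20 had enough UMIs in AN-GelMA and GelMA, 1 was higher and 5 were lower by a ratio of 2 or more in AN-GelMA, with a median of -0.18. All genes had 7.88% higher and 8.81% lower. In cells with CD3, 1 of 16 factors was higher and 1 lower, where all genes had 7.91% higher and 8.89% lower. *Prdm1*, which encodes Blimp-1, had 5 UMIs in AN-GelMA, 20 in GelMA and 12 in untreated, while *Zeb2* had 18, 6 and 19. *Id2* had 55, 105 and 44 and *Runx3* 71, 113 and 50. Over untreated, 9 of 20 factors were higher and 1 lower in GelMA with a median of 0.89, where all genes had 22.3% higher and 3.84% lower with a median of 0.50. Without the deep barcodes 3 of 18 were higher and 1 lower with a median of 0.33, where all genes had 10.5% and 6.06% with a median of 0.05.

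For the remaining lists few genes could be counted in AN-GelMA over GelMA, and their medians are given with the deep barcodes included. Their median log2 ratios were 0.16 for NK receptors, 0.31 for adhesion and homing, 0.23 for cytokine receptors, 0.07 for tissue residence, 0.79 for circulating and naive cells (over 6 genes, 3 higher and 2 lower), -0.38 for the cell cycle, 0.06 for interferon response, 0.60 for glycolysis and hypoxia (over 6 genes, 2 higher) and -0.23 for lipid metabolism. All genes had 7.88% higher and 8.81% lower in this pair. Among residence genes over all selected cells, *Rgs1* had 112 UMIs in AN-GelMA, 60 in GelMA and 100 in untreated, a log2 ratio of 1.15 (0.69 to 1.63) for AN-GelMA over GelMA and -0.97 (-1.46 to -0.50) for GelMA over untreated, which were 1.16 and -1.66 without the deep barcodes. *Itgae* had 189, 144 and 124. Fewer than 5 genes could be tested in the checkpoint (4), cytotoxic (3), effector cytokine (3), repair factor (2) and chemokine (2) lists, and 0 of 12 heat shock genes reached 20 UMIs. The medians of these 5 short lists for AN-GelMA over GelMA were 0.23, 0.15, -0.03, 1.25 and 1.73. The chemokine value of 1.73 lies between 2 genes with opposite ratios, -0.59 and 4.06, so it describes neither. Repair factors known from epidermal T cells were near the floor, with *Fgf7* at 1 UMI, *Igf1* at 6 and *Areg* at 11 in all 272 cells.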

How the data were processed

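Single-cell libraries were made with a probe-based fixed-RNA kit (10x Genomics GEM-X Flex v2), per the labels' protocols, and the matrices deposited by the authors hold raw counts of UMIs per gene and barcode, and the file headers name Cell Ranger 10.0.0. The submitters' processing notes name the builds GRCm39 and mm39. The sequence printed here is from GENCODE M21 on GRCm38, found by the older symbol, whose gene ID is that of *Trgv5* in the files. From the 27170 barcodes, 217 with fewer than 250 genes or over 10% mitochondrial UMIs were removed; doublets were removed only through the rule, with Scrublet as an alternative. UMIs of the members were summed per library and scaled to CPM. Intervals are exact binomial, exact Poisson or, for ratios, exact conditional binomial at 95%, and a count of 0 was taken as 3 UMIs in a ratio. They cover counting error only, and no test between groups was possible. Each gel was set against untreated, and AN-GelMA against GelMA, 3 comparisons in all. Lists used genes with at least 20 UMIs in a pair. The genes named per comparison were the 10 highest and 10 lowest ratios with at least 30 UMIs, an interval without a ratio of 1, and a CPM at least 2 times that of all other cells; the 20 genes highest over other cells needed 100 UMIs. Clusters used scanpy 1.11.5 (1000 variable genes, 20 components, 15 neighbours, Leiden resolution 0.8). The calculation was tested on simulated counts drawn from the summed profile of the members. Those counts hold no spread between cells, so the simulation says nothing about that spread. The members and lists were chosen with earlier results of these data known. Alternatives covered the rule, cell filters, gates, depth, scaling, count minimum and doublets. Leaving out deep barcodes, the single-gene values in cells with CD3 and the gene ratios within the gamma-delta gate were added after seeing the data. *Trdv4*, *Scart2*, *Klra9* and *Klrc2* have no values here. A few genes that the naming rule chose are not reported here.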

Additional observations from a re-analysis of the deposited data

How the results depend on the processing

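No paired analysis was possible because a group holds a single library. Leaving out a replicate was not possible for the same reason. All values below are in the order AN-GelMA, GelMA, untreated, or AN-GelMA over GelMA, GelMA over untreated, AN-GelMA over untreated. The share of cells was 0.624, 0.575 and 0.480% with at least 3 marker UMIs, 0.510, 0.575 and 0.596% with at least 2 CD3 UMIs, 0.853, 0.611 and 0.778% with 0 excluded UMIs, 0.760, 0.584 and 0.630% thinned to 500 UMIs, and 5.80, 11.2 and 6.73% of *Ptprc* cells. The order of the libraries changed between these settings. The gamma-delta share was 51.7, 67.7 and 72.4% with at least 3 marker UMIs and 59.2, 70.8 and 61.1% with at least 2 CD3 UMIs, where the share with *Trgv5* was 46.9, 49.2 and 36.1%; with 3 marker UMIs it was 35% in AN-GelMA and 44.8% in untreated. With 2 UMIs of the gate genes the gamma-delta share was 19.3% in AN-GelMA and 40.4% in GelMA, other CD3 cells were 44.0, 47.9 and 36.2%, cells without CD3 and without a gate gene 23.9% and 9.57% in the first 2 libraries, CD8 cells 1.83% in AN-GelMA, and 0% remained for CD4 cells in AN-GelMA and GelMA, CD8 and NK cells in GelMA and group 2 cells in untreated. With 3 marker UMIs, NK cells were 0% in GelMA and untreated, and CD8 and ungated cells without CD3 0% in untreated; with 0 excluded UMIs, group 2 cells were 0% in GelMA. Thinned, other CD3 cells were 43.8% in AN-GelMA, and in GelMA the ungated cells without CD3 were 9.09% and CD4 cells 0%. Regulatory and group 2 cells were 1.67% each in AN-GelMA with 3 marker UMIs; regulatory cells were 2.04% there and 0% in GelMA with 2 CD3 UMIs, and the gates without CD3 hold 0% there by construction.

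Counts of genes past a ratio of 2 changed with the number of genes tested. In AN-GelMA over GelMA the higher and lower counts were 183 higher with 3 marker UMIs, 119 and 168 with 2 CD3 UMIs, 186 and 169 with 0 excluded UMIs, 68 and 35 thinned, 1121 and 1524 with no minimum, 44 and 41 with 50 UMIs, and 57 and 32 under the leak filter (genes at 2 times the CPM of other cells). In GelMA over untreated they were 458 and 33, 303 and 45, 163 and 79, 34 and 34, 1870 and 2481, 160 and 8, and 104 and 56 under the same settings, 288 and 333 with median-of-ratios scaling, 499 and 267 with the mean CPM per cell, 55 lower in cells with CD3, and 258 higher without deep barcodes. In AN-GelMA over untreated they were 231 and 9, 142 and 15, 139 higher, 42 and 19, 1800 and 2158, 149 and 4, and 128 and 42, then 189 and 243, 322 and 172, 40 lower, and 165 higher. Over untreated, median-of-ratios scaling left more genes lower than higher, while the mean CPM per cell left more higher than lower.

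List medians that left their range did so mainly against untreated. T cell receptor signalling in AN-GelMA over GelMA was 0.37, 0.36 and 0.41 with 3 marker UMIs, with 2 CD3 UMIs and in cells with CD3, and tissue residence 0.77 in cells with CD3. In GelMA over untreated, T cell receptor signalling was 0.12, 0.14, 0.10, 0.11, 0.088 and 0.14 with 3 marker UMIs, 2 CD3 UMIs, 0 excluded UMIs, median-of-ratios, mean CPM and no deep barcodes; cytokine receptors -0.12, -0.25, -0.029, 0.10 and 0.018 with 3 marker UMIs, thinned, median-of-ratios, mean CPM and no deep barcodes; adhesion -0.22 with 0 excluded UMIs and -0.93 thinned; the cell cycle -1.13 with 0 excluded UMIs; and lineage factors 0.33 without deep barcodes. In AN-GelMA over untreated, T cell receptor signalling was 0.13, 0.026, 0.11, 0.19, 1.07 and 0.25 with 0 excluded UMIs, thinned, median-of-ratios, mean CPM, CD3 cells and no deep barcodes. Early activation was 1.51, 0.0020, 0.11, 0.27 and -0.047 with 3 marker UMIs, 0 excluded UMIs, median-of-ratios, mean CPM and no deep barcodes. Cytokine receptors were 0.10, -0.39, 0.064, 0.10 and 0.11 with 0 excluded UMIs, thinned, median-of-ratios, mean CPM and no deep barcodes, lineage factors -0.035, -0.011 and 0.13 with 0 excluded UMIs, median-of-ratios and mean CPM, NK receptors -0.87 thinned and -0.20 with median-of-ratios, interferon 0.28, -0.13 and 0.12 with 2 CD3 UMIs, thinned and median-of-ratios, adhesion -0.15 and the cell cycle -1.22 with 0 excluded UMIs.

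Single genes reversed in some settings. Against GelMA in AN-GelMA, *Ctla4* was -0.90 with 3 marker UMIs, *Vegfa* -1.21 with 2 CD3 UMIs, -0.23 in CD3 cells and -0.58 in the gamma-delta gate, and *Dgkd* 0.030 in that gate. In GelMA over untreated, *H2-M2* was -1.29, -0.85 and -0.060 with 2 CD3 UMIs, in CD3 cells and thinned, *Coro2a* -0.21 and *Trgv5* -0.14 thinned, *Trdc* -0.014 with 3 marker UMIs, and in the gamma-delta gate *Trgv5* was -0.034, *Trdc* -0.24 and *Vegfa* -0.44. In AN-GelMA over untreated, *Ctla4* was -2.36 and *Gata3* -0.042 with 3 marker UMIs, *Gata3* -1.97 and *H2-Ab1* -0.97 with 2 CD3 UMIs, *Gata3* -2.24 in the gamma-delta gate, *H2-Aa* -0.081 in CD3 cells and -0.20 thinned, *Trgv5* -0.020 thinned, *Spin2g* 0.27 with 0 excluded UMIs and 0.13 without deep barcodes, and *Hmgb3* 0.0020 with 0 excluded UMIs. Resolution 1.2 gave 10 clusters, against 6. Beyond what the settings remove by construction, the cause was not tested. The depth of 69 to 109 cells with medians under 1000 UMIs limits every gene with few UMIs.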
